A study of Mus musculus with 9 samples.

Results

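The genes of the interleukin-6 (IL-6), IL-10 and IL-12 families were examined in splenic type 2 dendritic cells (DC2) of young and adult mice. The 10 genes were chosen by symbol, as *Il6*, *Il6ra*, *Il6st*, *Il10*, *Il10ra*, *Il12a*, *Il12b*, *Il23a*, *Ebi3* and *Il27*, out of 24054 genes listed for each library. All 10 were listed, and 9 of them passed the filter for testing, an average of at least 1 read per library. The exception was *Il12a*.

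Messenger RNA was sequenced in 9 libraries of sorted cells, 3 in each of 3 groups. Young TOM+ cDC2 and young TOM- DC2 came from spleens of mice at postnatal day 8, and adult TOM+ cDC2 from mice aged 9 weeks for replicate 1 and 8 weeks for replicates 2 and 3. All mice were C57BL/6 and carried Clec9a-Cre/Cre and Rosa-tdTomato/tdTomato. A cell that had expressed Cre from the *Clec9a* locus, or whose ancestor had, was thus marked by the red fluorescent protein tdTomato (TOM+), and a cell without that history stayed TOM-. With Cre inserted in both copies of *Clec9a*, mice of all 3 groups lack the DNGR-1 receptor that the gene encodes. Cells were sorted as live, single and without autofluorescence, and as positive for MHCII, CD11c and CD11b, then split by TOM. Spleens of the young mice were pooled before sorting. Adult TOM- DC2 were not analysed here, so in the comparison of young TOM- DC2 with adult TOM+ cDC2 age and TOM status cannot be told apart.

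Dendritic cells instruct T cells partly through cytokines of these families. The IL-12 family is built from shared subunits. The p40 chain encoded by *Il12b* pairs with the *Il12a* product to form IL-12, which promotes Th1 cells, and with the *Il23a* product to form IL-23, which sustains Th17 cells and some innate lymphoid cells, while the *Ebi3* product pairs with the *Il27* product to form IL-27. IL-6 acts through its receptor chain *Il6ra* and the signalling chain gp130 (*Il6st*), which IL-27 also uses, and IL-10 restrains dendritic cells through *Il10ra* and *Il10rb*.

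The libraries held 12783252 to 22809401 reads assigned to genes. The adult libraries had the higher share of reads not assigned to a gene for any reason, 30.2% to 31.6% against 26.1% to 29.1% in the young ones. This share includes reads that mapped to several places, and its part in the age differences was not tested. Summed levels of 9 cDC2 markers, in TPM (a level per transcript length and library total, so that genes can be compared), were 17462 to 18971 in the young and 29865 to 32093 in the adult libraries, and none of the 9 was at 0 in any group. Most of this sum was *H2-Ab1*, a chain of MHCII, at 15674 to 16893 TPM in the young and 27691 to 29642 TPM in the adult libraries. The markers *Sirpa* (log2FC 0.56) and *Itgam* (log2FC 0.78) were higher in young than in adult TOM+ cDC2 and passed on padj by edgeR. Over the 9 libraries, the 6 B cell markers summed to 41.1 to 80.8 TPM and the 4 listed T cell markers to 0.76 to 6.32 TPM. In sorted bulk RNA, fewer cells of a type and less RNA per cell cannot be told apart.

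The receptor chains and *Ebi3* were the most abundant members. *Il10ra* had the highest mean TPM of the 10 genes in every group, above 95.8% to 97.1% of the genes tested. In young TOM+ cDC2 it was followed by *Ebi3* at 134 ± 6.98 TPM (SD, n = 3), *Il6ra* at 115 ± 10.8 TPM and *Il6st* at 51.6 ± 6.60 TPM, with no overlap between these neighbours. In adult TOM+ cDC2 the order was *Il6st* at 92.4 ± 8.09 TPM, *Ebi3* at 84.2 ± 5.94 TPM and *Il6ra* at 79.8 ± 9.89 TPM, and the ranges of these 3 overlapped. *Il12b* came next in every group, and *Il6*, *Il10*, *Il12a*, *Il23a* and *Il27* stayed at or below 11.30 TPM in every library.

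**Figure D1:**
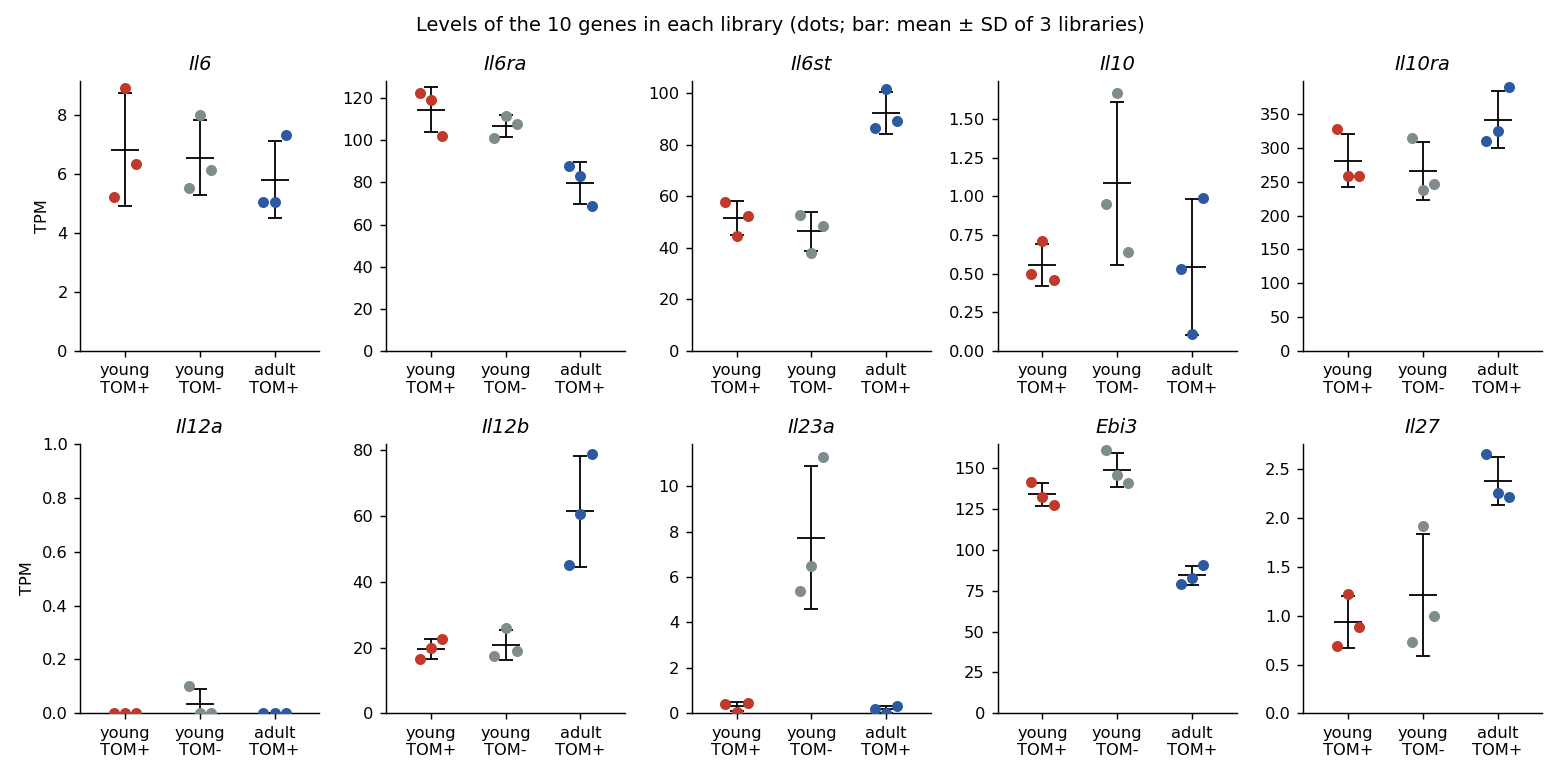
TPM of each of the 10 genes (vertical axes, linear and each with its own scale) in the 3 libraries of each group (dots), with the mean and SD as black bars. The 3 young TOM- libraries stand alone for Il23a, at 5.40 to 11.30 TPM, and the 3 adult libraries stand above all young ones for Il6st, Il12b and Il27 and below all young ones for Il6ra and Ebi3.

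*Il23a* was the member that separated the young populations. Its level was 5.40, 6.50 and 11.30 TPM in the 3 young TOM- DC2 libraries, 0.41, 0.08 and 0.44 TPM in young TOM+ cDC2, and 0.20, 0.00 and 0.32 TPM in adult TOM+ cDC2. All 3 TOM- libraries lay above all 6 TOM+ libraries, and the TOM+ groups overlapped each other. The TOM+ levels rest on few reads, 15 in the 3 young and 6 in the 3 adult libraries together, against 356 in the TOM- libraries. Per read assigned to genes, young TOM- DC2 had 24.7-fold more than young TOM+ cDC2 (exact Clopper-Pearson 95% interval 14.8 to 44.7) and 48.0-fold more than adult TOM+ cDC2 (21.9 to 132). These intervals cover counting error only.

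The test ran across all 14452 genes with edgeR's quasi-likelihood test and Benjamini-Hochberg adjustment (padj), and genes were called at a log2 fold change (log2FC) beyond 1 and a padj under 0.05. Between young TOM+ cDC2 and young TOM- DC2, *Il23a* was the 1 member called of 9 tested, with a log2FC of -4.50 (SE 0.51, padj = 0.000414). Of all tested genes 1.18% were called in this comparison, and 1.16% were called higher in TOM- DC2. Against adult TOM+ cDC2, *Il23a* was higher in young TOM- DC2 by a log2FC of 5.24 (SE 0.60, padj = 3.76e-05 by edgeR). Between the young and adult TOM+ groups it did not pass, at a log2FC of 0.73 with a 95% interval from -1.15 to 2.62.

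Within young TOM- DC2, *Il23a* varied between 60 and 209 reads, and other chains of the family were highest in other libraries. *Il23a* was highest in replicate 3, *Il12b* in replicate 2 at 25.86 TPM and *Ebi3* in replicate 1 at 160.55 TPM. The ratio of *Il12b* to *Il23a* TPM, the chains of IL-23, was 3.25, 3.98 and 1.67 in the TOM- libraries and 40.1, 248 and 51.1 in the young TOM+ libraries. The ranges did not overlap, and the denominators of the TOM+ ratios rest on 1 to 7 reads.

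Among markers of type 3 innate lymphoid cells (ILC3), *Il22*, a defining cytokine gene, was at 0 in all 9 libraries. *Il7r*, a cytokine receptor chain of these cells, was at 4.79 to 5.61 TPM in young TOM- DC2 against 2.89 to 3.63 TPM in young TOM+ cDC2 and did not pass (padj = 0.118 by edgeR). The part of ILC3 in the *Il23a* level was not tested.

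The 3 genes whose pattern was most like that of *Il23a* over the 9 libraries, by Pearson's r of log2(TPM + 1) among 10112 genes averaging 50 reads or more per library, were *Col9a3* (r = 0.993), *Slc28a3* (r = 0.991) and *Rasl11a* (r = 0.989). *Col9a3* encodes a collagen chain and *Slc28a3* a nucleoside transporter. *Slc28a3* averaged 5.21 TPM in young TOM- DC2, 0.037 TPM in young TOM+ cDC2 and 0 TPM in adult TOM+ cDC2. The points share their libraries and fall into groups, so these values describe the group pattern.

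*Il12b*, the shared p40 chain, was higher in adult than in young cells. Its level was 16.44, 19.84 and 22.47 TPM in young TOM+ cDC2, 17.57, 25.86 and 18.89 TPM in young TOM- DC2, and 44.95, 60.43 and 78.80 TPM in adult TOM+ cDC2. Every adult library lay above every young one, and the young groups overlapped. The adult level was 3.45-fold that of young TOM+ cDC2 (log2FC young minus adult -1.79, SE 0.21, padj = 3.00e-05 by edgeR). Against young TOM- DC2 it was 3.27-fold (log2FC -1.71, SE 0.20, padj = 5.19e-05 by edgeR). Both comparisons use the same adult libraries. Between the young groups the log2FC was -0.08, with a 95% interval from -0.53 to 0.37.

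*Il12b* was called in the same direction as most of a list of 9 markers of mature or migratory dendritic cells, which summed to 1035 to 1243 TPM in the 6 young libraries and 2936 to 4284 TPM in the adult ones. Of these 9 genes, 6 were called higher in adult than in young TOM+ cDC2. Among them was *Ccr7*, the receptor that guides dendritic cells to lymph nodes (log2FC -2.66, SE 0.17, padj = 5.17e-07 by edgeR). The list also holds the chemokine gene *Ccl17*, which was called higher in the young cells (log2FC 2.91, SE 0.87, padj = 0.0182 by edgeR). Adult replicate 3 had both the most *Il12b* and the highest sum of the list, whereas replicate 2 had more *Il12b* than replicate 1 and a lower sum. The part of maturation in the *Il12b* level was not tested.

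**Figure D2:**
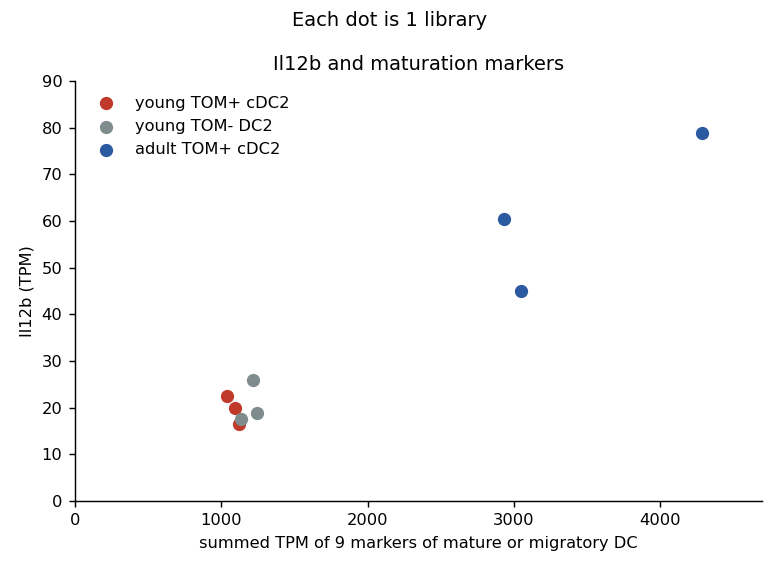
Il12b TPM (vertical, linear) against the summed TPM of 9 markers of mature or migratory dendritic cells (horizontal, linear); each dot is 1 of the 9 libraries, coloured by group. The 3 adult libraries lie alone at the upper right, at 44.95 to 78.80 TPM of Il12b.

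The 3 genes most like *Il12b* over the 9 libraries were *Il1b* (r = 0.991), *Zfand5* (r = 0.986) and *Stx12* (r = 0.980), among 10111 genes. *Il1b*, which encodes the inflammatory cytokine interleukin-1β, averaged 6309 TPM in adult TOM+ cDC2, 3047 TPM in young TOM+ cDC2 and 2981 TPM in young TOM- DC2.

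The partner of p40 in IL-12 was hardly detected. *Il12a* had 3 reads in all 9 libraries together, 1 each in young TOM- DC2 replicates 1 and 3 and in adult replicate 1, and its TPM was 0.10 in young TOM- DC2 replicate 1 and 0.00 in the other libraries. Taken as 3 reads of the total of each library, a count of 0 allows up to 0.132 to 0.235 CPM (counts scaled to a common library total). At this depth no difference in *Il12a* could be detected, and it was left out of the test by the filter.

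*Ebi3*, the chain that IL-27 shares with IL-35, differed by age in the opposite direction to *Il12b*. It stood at 141.28, 132.36 and 127.53 TPM in young TOM+ cDC2, at 160.55, 145.36 and 140.76 TPM in young TOM- DC2 and at 79.03, 82.96 and 90.71 TPM in adult TOM+ cDC2. The adult libraries lay below all young ones. The log2FC was 0.52 (SE 0.08, padj = 0.000391 by edgeR) for young TOM+ cDC2 minus adult and 0.64 (SE 0.08, padj = 9.58e-05 by edgeR) for young TOM- DC2 minus adult, so *Ebi3* passed on padj in both without reaching the log2FC of 1. Between the young groups the log2FC was -0.13, with a 95% interval from -0.31 to 0.05.

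*Il27*, the partner of *Ebi3* in IL-27, was far lower than *Ebi3* in every library. Its level was 0.69, 1.22 and 0.89 TPM in young TOM+ cDC2, 0.73, 1.92 and 1.00 TPM in young TOM- DC2, and 2.66, 2.26 and 2.22 TPM in adult TOM+ cDC2. The adult libraries lay above all young ones, with 14 to 16 reads each against 6 to 14 reads in the young. The log2FC was -1.61 for young TOM+ cDC2 minus adult (SE 0.47, padj = 0.0169 by edgeR), which was called, and -1.07 for young TOM- DC2 minus adult (SE 0.46, padj = 0.0866 by edgeR), which was not. The call was lost without young TOM+ cDC2 replicate 3 (padj = 0.0593 by edgeR) or adult replicate 1 (padj = 0.0515 by edgeR). *Il27* overlaps *Apobr*, and without strand, reads on bases that both genes share are not assigned to either. The genes most like *Il27* were *Zfp36l1* (r = 0.963), *Fam219a* (r = 0.963) and *Osm* (r = 0.957), among 10112 genes.

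**Figure D3:**
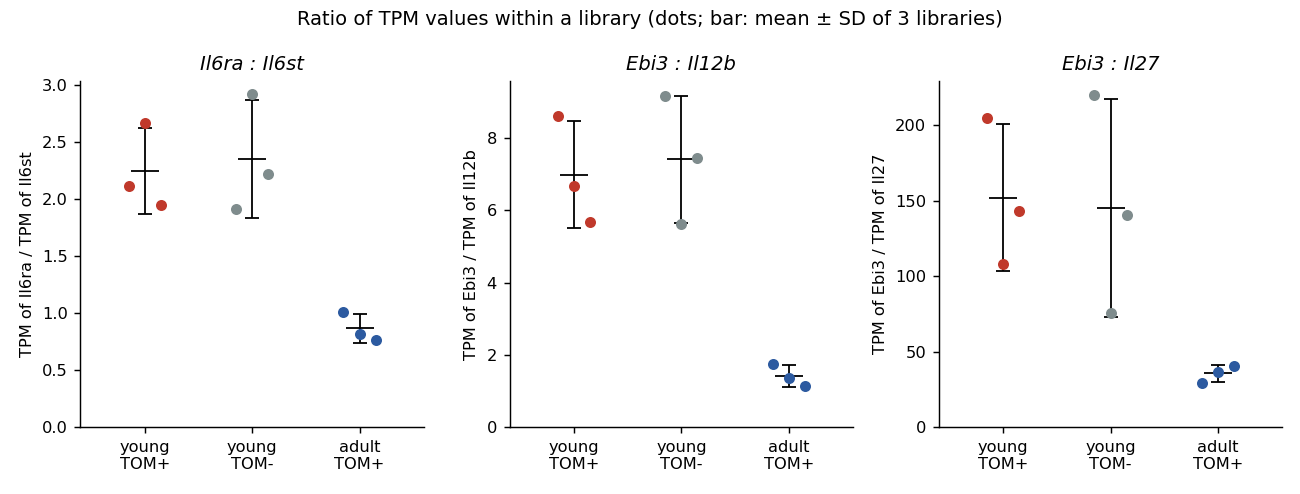
Ratio of TPM values within each library (dots) for Il6ra to Il6st, Ebi3 to Il12b and Ebi3 to Il27, by group, with mean and SD as black bars on linear axes from 0. In each panel the 3 adult ratios lie below all 6 young ones.

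As *Ebi3* was lower and *Il12b* and *Il27* higher in adult cells, the balance of the chains within a library differed with age. The ratio of *Ebi3* to *Il12b* TPM was 5.68 to 8.59 in young TOM+ cDC2, 5.62 to 9.14 in young TOM- DC2 and 1.15 to 1.76 in adult TOM+ cDC2. The ratio of *Ebi3* to *Il27* TPM was 108 to 205, 75.7 to 220 and 29.7 to 40.9 in the same order. Both sets of adult ratios lay below all young ones, and the young groups overlapped. A ratio within a library shows unequal change and not which chain changed.

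The promoters of *Il12b* and *Ebi3*, which differed by age in opposite directions, and of *Il6*, whose level did not pass in any comparison, are printed for their 250 bases before the transcription start, 5′ to 3′ on the plus strand, the coding strand of all 3 genes. They are from RefSeq on GRCm38.p6, at chr11:44399813-44400062 for *Il12b*, chr17:55952373-55952622 for *Ebi3* and chr5:30012864-30013113 for *Il6*, and capitals mark matches to the 3 motifs named after them.
Il12b: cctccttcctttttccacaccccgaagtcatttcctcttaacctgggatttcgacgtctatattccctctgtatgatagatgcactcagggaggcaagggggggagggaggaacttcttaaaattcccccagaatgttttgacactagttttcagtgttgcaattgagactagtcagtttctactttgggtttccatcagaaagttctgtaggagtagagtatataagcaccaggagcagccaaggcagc
Ebi3: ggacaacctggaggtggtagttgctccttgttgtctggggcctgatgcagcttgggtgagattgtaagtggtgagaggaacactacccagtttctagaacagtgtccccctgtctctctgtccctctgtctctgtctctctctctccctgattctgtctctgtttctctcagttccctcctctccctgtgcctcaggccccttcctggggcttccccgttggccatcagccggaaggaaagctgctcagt
Il6: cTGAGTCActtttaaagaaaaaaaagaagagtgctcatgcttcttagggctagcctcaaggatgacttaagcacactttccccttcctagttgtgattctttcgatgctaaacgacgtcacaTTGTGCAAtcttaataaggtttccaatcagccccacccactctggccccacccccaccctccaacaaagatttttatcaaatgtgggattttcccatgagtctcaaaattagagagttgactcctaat

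The motifs were AP-1 (TGANTCA), C/EBP (TTGCNNAA) and the STAT site GAS (TTCNNNGAA), searched on both strands from 250 bases before to 50 bases after the start. Of 32851 promoters of that length, 7.81% held the AP-1 motif, 10.8% C/EBP and 8.30% GAS. A promoter was at hand for 6 of the 10 genes, *Il6*, *Il6ra*, *Il6st*, *Il12a*, *Il12b* and *Ebi3*. *Il6* alone among these held a match to any of the 3 motifs. C/EBP started at position -128 from the start site on the opposite strand and AP-1 at -249 on both strands, and these did not overlap. GAS had no match in any of the 6 genes. Motifs of NF-kB and of the interferon-stimulated response element were also searched in an earlier pass and are not reported here, so the capitals do not mark them. A missing match says only that these letters are not in this window.

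*Il6* itself was low and even. Its level was 5.21, 8.94 and 6.33 TPM in young TOM+ cDC2, 5.54, 8.00 and 6.15 TPM in young TOM- DC2 and 5.04, 5.06 and 7.32 TPM in adult TOM+ cDC2. The 3 groups overlapped. The log2FC was 0.11 between the young groups (95% interval -0.46 to 0.67), 0.08 for young TOM+ cDC2 minus adult (-0.50 to 0.66) and -0.03 for young TOM- DC2 minus adult (-0.61 to 0.55). A 2-fold difference, a log2FC of 1 in either direction, thus lay outside each interval.

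The chains through which IL-6 signals shifted against each other with age. *Il6ra* stood at 122.38, 119.16 and 102.30 TPM in young TOM+ cDC2, 101.13, 111.48 and 107.57 TPM in young TOM- DC2 and 87.74, 82.94 and 68.73 TPM in adult TOM+ cDC2. The adult libraries lay below all young ones in TPM. The log2FC for young TOM+ cDC2 minus adult was 0.39 (SE 0.12, padj = 0.0188 by edgeR), and the padj rose to 0.073 without young TOM+ cDC2 replicate 2 and to 0.065 without adult replicate 3. For young TOM- DC2 minus adult it was 0.26 (SE 0.12, padj = 0.0997 by edgeR), and it passed on padj with limma on log2(TPM + 1) (0.42, padj = 0.0100) and on log2(TPM + 0.1) (0.43, padj = 0.00995).

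*Il6st*, which encodes gp130, stood at 57.77, 44.66 and 52.49 TPM in young TOM+ cDC2, 52.69, 38.08 and 48.36 TPM in young TOM- DC2 and 86.35, 101.56 and 89.17 TPM in adult TOM+ cDC2. Every adult library lay above every young one. The log2FC was -1.16 for young TOM- DC2 minus adult (SE 0.12, padj = 1.43e-05 by edgeR), which was called. For young TOM+ cDC2 minus adult it was -0.97 (SE 0.11, padj = 3.92e-05 by edgeR), which passed on padj and fell short of the log2FC of 1. The difference between these age comparisons, which share the adult libraries, is the young comparison, in which *Il6st* did not pass (log2FC 0.19, 95% interval -0.06 to 0.44).

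The ratio of *Il6ra* to *Il6st* TPM was 2.12, 2.67 and 1.95 in young TOM+ cDC2, 1.92, 2.93 and 2.22 in young TOM- DC2 and 1.02, 0.817 and 0.771 in adult TOM+ cDC2. In 2 of the 3 adult libraries *Il6st* thus exceeded *Il6ra*, which it did in none of the 6 young libraries. The genes most like *Il6st* over the 9 libraries were *Ampd3* (r = 0.992), *Rasa4* (r = 0.989) and *Rnf122* (r = 0.985), among 10111 genes. *Ampd3* encodes an AMP deaminase and averaged 31.8 TPM in adult TOM+ cDC2, 19.8 TPM in young TOM+ cDC2 and 17.9 TPM in young TOM- DC2.

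*Il10* was near the limit of detection. Its level was 0.50, 0.71 and 0.46 TPM in young TOM+ cDC2, 0.95, 1.67 and 0.64 TPM in young TOM- DC2 and 0.53, 0.11 and 0.99 TPM in adult TOM+ cDC2, from 1 to 28 reads per library. The groups overlapped in TPM. The log2FC of -0.97 between the young groups (SE 0.58, padj = 0.705 by edgeR) and of 1.06 for young TOM- DC2 minus adult (SE 0.61, padj = 0.194 by edgeR) did not pass. The second reached 2.16 (padj = 0.0332 by edgeR) without adult replicate 3, which had 17 of the 23 adult reads.

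*Il10ra*, the ligand-binding chain of the IL-10 receptor, stood at 327.62, 258.93 and 258.16 TPM in young TOM+ cDC2, 314.85, 237.67 and 246.13 TPM in young TOM- DC2 and 310.35, 325.57 and 390.98 TPM in adult TOM+ cDC2. In TPM replicate 1 of each young group reached into the adult range. The log2FC was -0.41 for young TOM+ cDC2 minus adult (SE 0.11, padj = 0.00849 by edgeR) and -0.52 for young TOM- DC2 minus adult (SE 0.11, padj = 0.00217 by edgeR). Neither passed when log2(TPM + 1) was tested with limma (padj = 0.136 and padj = 0.0619). *Il10rb*, its partner chain, stood at 111.53 to 122.61 TPM in the young and 116.90 to 150.33 TPM in the adult libraries. Its log2FC was -0.32 for young TOM+ cDC2 minus adult (SE 0.09, padj = 0.0108 by edgeR). For young TOM- DC2 minus adult it was -0.31 (SE 0.09, padj = 0.0138 by edgeR). *Il10rb* thus passed on padj in both age comparisons without reaching the log2FC of 1.

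**Figure D4:**
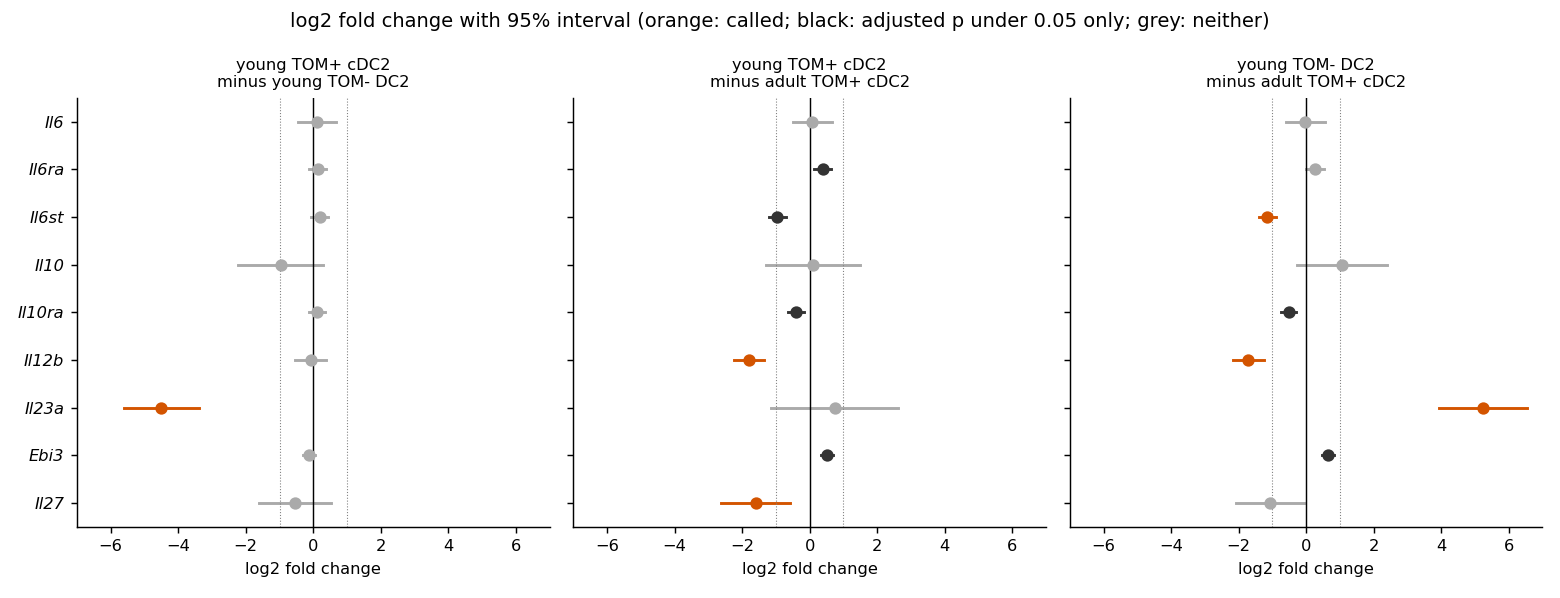
The log2FC (points) with 95% interval (lines) of the 9 tested members in the 3 comparisons, as first group minus second; orange marks called genes, black a padj under 0.05 alone and grey neither. Il23a lies apart wherever young TOM- DC2 enter, and Il12b lies near -1.7 to -1.8 in both age comparisons.

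In all, 2 of 9 tested members were called between young and adult TOM+ cDC2, both higher in the adult, where 12.8% of all tested genes were called and 6.86% were called higher in the adult. On padj alone 6 of 9 passed, 4 higher in the adult and 2 in the young, against 40.6% of all tested genes. Between young TOM- DC2 and adult TOM+ cDC2, 3 of 9 were called, where 11.3% of all tested genes were called, and 5 passed on padj alone, against 36.3%. The median log2FC of the 9 was -0.08, 0.08 and -0.03 in the 3 comparisons, beside medians of 0.00, 0.05 and 0.07 over all tested genes. Normalised counts did not overlap between groups for 3 of 9 members between the young groups, where 16.6% of all tested genes did not overlap, and for 6 of 9 in each age comparison, where 51.1% and 47.6% did not.

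The other ligands and receptors of the families numbered 31, of which 20 were tested. By edgeR 0 were called between the young groups, where 3 were at an unadjusted p under 0.05 and DESeq2 with apeglm called 0. By edgeR 4 were called higher in adult than in young TOM+ cDC2 and 1 higher in adult TOM+ cDC2 than in young TOM- DC2. Of all tested genes 1.18% were called between the young groups, and 12.8% and 11.3% in the age comparisons. *Il27ra*, the IL-27 receptor chain that pairs with gp130, was called in both, at 1.59 to 2.94 TPM in young TOM+ cDC2, 1.81 to 3.44 TPM in young TOM- DC2 and 6.61 to 7.0 TPM in adult TOM+ cDC2 (log2FC -1.75, SE 0.22, padj = 5.97e-05 and log2FC -1.52, SE 0.22, padj = 0.000193 by edgeR). *Osm*, encoding the gp130 cytokine oncostatin M, was called at a log2FC of -1.003 (SE 0.16, padj = 0.000334 by edgeR) in the TOM+ age comparison.

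Of the receptors for IL-12 and IL-23, *Il12rb2* was expressed and its partner was not at a comparable level. *Il12rb2* stood at 17.60 to 25.22 TPM in young TOM+ cDC2, 23.90 to 37.25 TPM in young TOM- DC2 and 39.18 to 45.76 TPM in adult TOM+ cDC2, and was called between the TOM+ groups (log2FC -1.09, SE 0.13, padj = 4.06e-05 by edgeR). *Il12rb1*, the chain that the IL-12 and IL-23 receptors share, stayed between 0.00 and 0.21 TPM, with 0 to 6 reads per library. *Il23r* had 0 reads in the 3 young TOM+ libraries, 6 in the 3 young TOM- libraries and 7 in the 3 adult ones. With 3 reads put in place of the 0 of young TOM+ cDC2, the ratio per read was 2.08 for young TOM- DC2 and 3.003 for adult TOM+ cDC2. The counts of 6 and 7 reads are taken as exact there, so these ratios are not lower bounds. By edgeR *Il23r* did not pass between the young groups (padj = 0.365). It was called higher in adult than in young TOM+ cDC2 (log2FC -4.68, SE 1.45, padj = 0.0261 by edgeR).

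**Figure D5:**
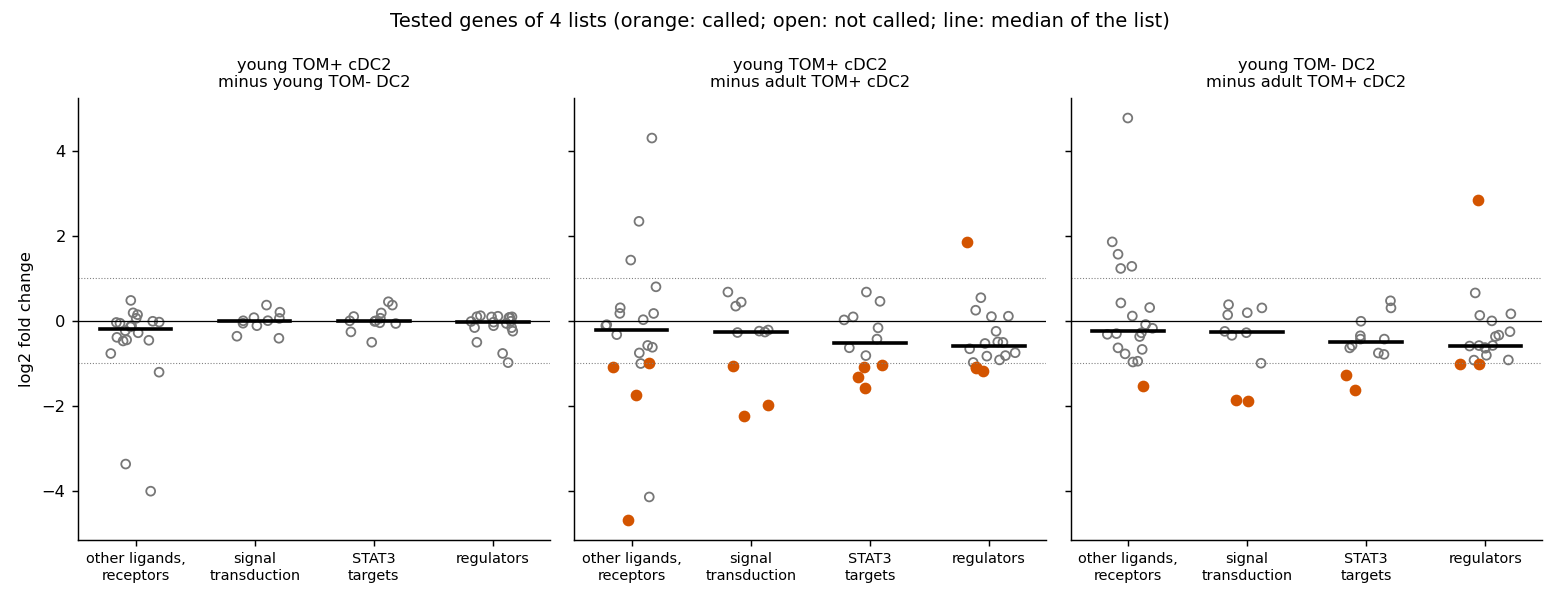
The log2FC of each tested gene (circles) of 4 gene lists in the 3 comparisons, as first group minus second, with the list median as a black line and called genes in orange. No gene of the lists is called between the young groups, and in the age comparisons all list medians lie below 0, on the adult side.

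Of 10 genes of signal transduction, edgeR called 0 between the young groups, 0 were at an unadjusted p under 0.05 and DESeq2 with apeglm called 0. Of the same genes 3 were called between the TOM+ groups, all higher in the adult, beside 12.8% of all tested genes, and 2 against young TOM- DC2, beside 11.3%. On padj alone 5 of 10 passed in each age comparison, in both directions, beside 40.6% and 36.3% of all tested genes. Among them were *Stat4*, which transmits IL-12 signals (log2FC -2.24, SE 0.25, padj = 2.44e-05 by edgeR) and *Stat3*, which transmits IL-6, IL-10 and IL-23 signals (log2FC -1.05, SE 0.10, padj = 6.05e-06 by edgeR). *Stat4* was also called higher in the adult against young TOM- DC2. The list median was 0.00, -0.25 and -0.26 in the 3 comparisons.

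Of 12 STAT3 target genes, 4 were called between the TOM+ groups, *Bcl6* (log2FC -1.57), *Etv3* (-1.31), *Nfil3* (-1.08) and *Pim1* (-1.05), all higher in the adult, and 2, *Bcl6* and *Etv3*, against young TOM- DC2. Of all tested genes 12.8% and 11.3% were called in these comparisons. On padj alone 9 of 12 passed in each age comparison, beside 40.6% and 36.3% of all tested genes. Between the young groups edgeR and DESeq2 with apeglm called 0, and 1 was at an unadjusted p under 0.05. *Socs3*, the feedback inhibitor of gp130 signalling and itself a STAT3 target, lay on the other side: it stood at 64.69 to 88.13 TPM in young TOM+ cDC2, 50.16 to 69.90 TPM in young TOM- DC2 and 40.19 to 52.00 TPM in adult TOM+ cDC2 (log2FC 0.68, SE 0.18, padj = 0.00861 by edgeR between the TOM+ groups). The list median was 0.00 between the young groups, and -0.53 and -0.50 in the age comparisons.

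Of 18 regulators of the cytokine genes, 4 were called between the TOM+ groups and 3 between young TOM- DC2 and adult TOM+ cDC2, all by edgeR. Of all tested genes 12.8% and 11.3% were called in these comparisons. Between the young groups edgeR and DESeq2 with apeglm called 0, and 3 were at an unadjusted p under 0.05. *Rel*, the NF-kB subunit c-Rel that activates *Il12b*, was higher in the adult in both (log2FC -1.17, SE 0.11 and log2FC -1.01, SE 0.11). *Maf*, a transcription factor that promotes *Il10* and restrains *Il12b* in macrophages, was the 1 called gene of this list that was higher in the young, at 0.32 to 1.43 TPM in the young and 0.08 to 0.19 TPM in the adult libraries (log2FC 1.86, SE 0.48, padj = 0.0080 by edgeR in TOM+ cDC2 and log2FC 2.84, SE 0.46, padj = 0.000438 by edgeR for young TOM- DC2). *Irf8*, which activates *Il12b*, was at 20.27 to 26.45 TPM in young TOM+ cDC2, 39.13 to 44.21 TPM in young TOM- DC2 and 45.17 to 49.22 TPM in adult TOM+ cDC2, and passed on padj between the young groups (log2FC -0.77, SE 0.11, padj = 0.00275 by edgeR) without reaching 1. Between young and adult TOM+ cDC2 *Irf8* was called (log2FC -1.10, SE 0.11, padj = 1.40e-05 by edgeR), and between young TOM- DC2 and adult it passed on padj at a log2FC of -0.34 (padj = 0.0334 by edgeR). The list median was -0.02, -0.59 and -0.58.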

How the data were processed

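Messenger RNA of sorted splenic cells was measured in 9 libraries, grouped by age, cell type and sort gate per the labels. The authors converted RNA to cDNA with SMART-seq v4, sequenced 50-base single-end reads and aligned them to mm10 with STAR; versions of STAR and RSEM are not given in the sources used here. The deposited counts are reads per gene without normalization, and the unstranded column was used. Reads on bases that overlapping genes share fall among the unassigned reads, so such genes can lose reads. *Il6*, *Il6ra*, *Il10ra*, *Ebi3* and *Il27* each overlap another gene. With RSEM the authors also made expected counts, which were rounded for 1 alternative, TPM, used for levels, and FPKM, not used here. Summary lines of unassigned reads were left out.

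The members and gene lists were chosen with earlier results of these data known. Genes averaging 1 read or more per library were tested with edgeR 4.0.16 in R 4.3.3 (quasi-likelihood test, TMM normalization, 9 libraries in 3 groups sharing 1 estimate of the spread, Benjamini-Hochberg adjustment over 14452 genes) and called at a log2FC beyond 1 and padj under 0.05; the standard error is the log2FC divided by the root of F. The script was tested on simulated data. Named genes were all members, the called genes of each list with the largest log2FC, up to 4 in a comparison, the receptor genes *Il10rb*, *Il12rb1*, *Il12rb2*, *Il23r* and *Il27ra*, and the 3 genes most like each called member; other list genes were chosen after their values were seen, *Socs3* among them. Some list genes are not reported here.

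Alternatives were DESeq2 1.42.0 size factors, DESeq2 with apeglm 1.24.0, other count filters, RSEM expected counts, limma 3.58.1 on log2(TPM + 1) and log2(TPM + 0.1), a replicate block, fits of only the compared groups, and each library left out. The number in the deposited names (81, 91 or 92) was used to pair the young libraries. Deviations from the group means of same-numbered libraries correlated at 0.463, 0.134 and 0.299, each above 0.1. The highest correlation with a differently numbered library was -0.274, 0.040 and 0.183 in the same order. The value of 0.183 for number 92 is also above 0.1 and above the 0.134 of number 91. Reads without molecular identifiers are not independent molecules, and p-values measure the spread between these libraries, which the labels do not tie to separate animals.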

Additional observations from a re-analysis of the deposited data

How the results depend on the processing

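Young TOM+ against TOM-: *Il23a* was the 1 member called under all 9 alternatives and without each library. Young against adult TOM+ cDC2: 1 member was called by limma on log2(TPM + 1), where the log2FC of *Il27* was -0.81, and 2 to 3 without each library; *Il6st* was also called with RSEM expected counts (log2FC -1.001) and without young TOM+ cDC2 replicate 1 or 3 or adult replicate 1 or 3 (log2FC -1.02 to -1.002). Young TOM- DC2 against adult: 3 to 4 were called without each library. *Il27* was called there at a minimum average count of 10 (log2FC -1.10, padj = 0.0422) and by limma on log2(TPM + 0.1) (-1.01, padj = 0.0394), and *Il6st* lost its call by limma on log2(TPM + 1) (-0.99). The replicate block changed no member's call (1, 2 and 3 called), as the pairing checked above allowed it to be fitted.

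Directions turned only for members that did not pass. Without each library, the log2FC of *Il6* ranged from -0.16 to 0.30 between the young groups, from -0.18 to 0.27 for young TOM+ cDC2 minus adult and from -0.19 to 0.16 for young TOM- DC2 minus adult, that of *Il12b* from -0.21 to 0.13 between the young groups and that of *Il10* from -0.37 to 1.19 for young TOM+ cDC2 minus adult. *Il10* was at -0.16 there with RSEM expected counts, and *Il6* at 0.16 and 0.18 for young TOM- DC2 minus adult by limma with pseudocounts of 1 and 0.1. The causes were not tested.

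By limma on log2(TPM + 0.1) the median log2FC of all genes was 0.17 and 0.22 in the TOM+ and TOM- age comparisons, against 0.05 and 0.07, and 57.4% and 70.3% of called genes were higher in the young, against 46.5% and 57.6%. On log2(TPM + 1), 1122 and 986 genes were called, against 1853 and 1631. DESeq2 with apeglm called 2 other ligands and receptors between the TOM+ groups, against 4. *Il10*, *Il12a*, *Il27* and, in TOM+ cells, *Il23a* had at most 28 reads in a library, which limits what could be detected.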

Other observations

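Markers of other cell types that the sort gate could hold were low in all groups or differed little between the young groups. Summed TPM of 6 cDC1 markers was 150 to 193 in young TOM+ cDC2, 143 to 198 in young TOM- DC2 and 127 to 150 in adult TOM+ cDC2. The 9 listed markers of monocytes and macrophages summed to 353 to 393, 347 to 387 and 230 to 286 TPM in the same order, and 5 plasmacytoid dendritic cell markers to between 19.9 and 26.8 TPM over all libraries. The 5 listed neutrophil markers summed to 0.44 to 0.94 TPM in young TOM+ cDC2, 0.38 to 17.3 TPM in young TOM- DC2 and 0.05 to 0.34 TPM in adult TOM+ cDC2. The value of 17.3 TPM was that of young TOM- DC2 replicate 1, and replicates 2 and 3 were at 0.38 and 0.60 TPM.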
